A study of Mus musculus with 12 samples.

Results

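CpG sites at a distance of more than 1000 and up to 5000 bp from the nearest transcript start were described in mouse brain. They were the autosomal cytosines of CpG dinucleotides that had at least 10 reads in all 12 reduced representation bisulfite sequencing (RRBS) libraries and lay in this zone around any transcript of the GENCODE vM21 basic set. There were 84804 such sites, called flanking sites here, of 980547 sites with at least 10 reads in every library. A further 781217 autosomal sites lay within 1000 bp of a start, 104754 lay over 5000 bp away, and the rest were on chromosome X. Each strand of a CpG counted as a site of its own. Methylation was measured as the percent of reads in which the cytosine had escaped bisulfite conversion.

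All 12 mice were 11 months old. The 4 wild-type (Wt) mice, 3 females and 1 labelled male, and the 8 Tg2576 (Tg) mice, 4 females and 4 males, came from the same supplier. Tg2576 mice carry human APP with the Swedish familial mutation of Alzheimer's disease, driven by a prion promoter. Each library came from 1 animal and held dorsal hippocampus and cortex together, so that all cell types of both regions contributed to every level. A methylation level cannot show whether the cells or their methylation changed, and the tissue label could not be checked by expression markers. The library labelled Wt male had an X chromosome level of 19.95% and 0.0696 chromosome Y sites per 1000 autosomal sites. The females had 20.7 to 22.98% and at most 0.151, and the Tg males had at most 5.67% and at least 0.347, so that this library was closer to the females than to its label. Genotype results are given with and without it. Wt female 1 and Tg female 1 had the highest mean levels over the flanking sites. The median coverage of the flanking sites ran from 20 reads in Tg female 4 to 68 in Tg female 1. On chromosome M, 0.988% (Tg male 3) to 1.18% (Tg female 2) of the counts were methylated. Whether flanking levels at or below this differ from each other was not tested.

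In mammalian genomes most CpGs are methylated, and the exceptions gather in CpG islands, dense clusters that often cover the starts of genes. Around an island lie its shores, where methylation passes from low to high and where differences between tissues have often been found. DNA methyltransferases add the mark and TET enzymes start its removal. Genes of developmental transcription factors can sit in unmethylated valleys far wider than an island, and imprinted genes carry methylation on the copy from one parent only.

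The stretches printed here, read from the plus strand of mm10, show the kinds of sequence that these levels came from. Flanking CpGs with data in all libraries are in capitals. They are shown because the results return to them. There is a CpG-dense stretch without methylation, a pair of stretches at intermediate levels, a pair with high methylation, and others whose levels differed between animals or at an imprinted gene.
The first 300 bases of the unmethylated region upstream of Mir17hg (chr14:115040431-115040730) held 44 CpGs:
Mir17hg: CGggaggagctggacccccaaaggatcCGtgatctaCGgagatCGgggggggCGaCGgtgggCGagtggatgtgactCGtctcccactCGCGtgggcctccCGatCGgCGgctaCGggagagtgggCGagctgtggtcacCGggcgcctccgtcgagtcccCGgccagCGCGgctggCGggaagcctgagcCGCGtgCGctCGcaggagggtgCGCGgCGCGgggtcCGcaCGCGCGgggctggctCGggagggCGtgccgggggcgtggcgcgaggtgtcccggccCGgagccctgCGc
A coding exon of Dusp8 (chr7:142082207-142082506) and one of Nr4a2 with the adjoining intron (chr2:57110103-57110251) were intermediate in every animal:
Dusp8: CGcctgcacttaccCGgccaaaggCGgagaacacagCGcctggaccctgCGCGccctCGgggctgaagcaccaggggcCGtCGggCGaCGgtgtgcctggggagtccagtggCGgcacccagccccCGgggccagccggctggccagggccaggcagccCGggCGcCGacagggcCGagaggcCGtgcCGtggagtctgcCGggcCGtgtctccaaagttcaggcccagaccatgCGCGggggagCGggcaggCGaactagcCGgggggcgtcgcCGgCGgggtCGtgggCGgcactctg
Nr4a2: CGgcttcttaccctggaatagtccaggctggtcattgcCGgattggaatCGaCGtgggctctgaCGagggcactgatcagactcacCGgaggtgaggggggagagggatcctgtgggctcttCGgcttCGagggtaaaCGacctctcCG
Coding exons of Zfp865 (chr7:5030617-5030723) and Daxx (chr17:33911817-33911983) were highly methylated, although that of Zfp865 held 13 CpGs in 107 bases:
Zfp865: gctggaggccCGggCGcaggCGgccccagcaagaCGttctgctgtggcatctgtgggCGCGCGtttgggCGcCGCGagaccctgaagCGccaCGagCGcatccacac
Daxx: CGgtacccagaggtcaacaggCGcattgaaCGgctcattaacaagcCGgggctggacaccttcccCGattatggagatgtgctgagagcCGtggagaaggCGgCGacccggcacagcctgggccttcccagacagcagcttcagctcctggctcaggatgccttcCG
A coding exon of Duox1 (chr2:122319504-122319606), a stretch outside genes near 1700021N21Rik (chr4:134453874-134453970), an intron of Nrxn2 (chr19:6423385-6423527), a coding exon of Cilp2 (chr8:69882980-69883060) and an intron of Syk (chr13:52599062-52599134) differed between animals or groups:
Duox1: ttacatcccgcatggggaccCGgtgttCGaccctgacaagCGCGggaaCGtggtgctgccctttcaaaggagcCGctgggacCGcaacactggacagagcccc
1700021N21Rik: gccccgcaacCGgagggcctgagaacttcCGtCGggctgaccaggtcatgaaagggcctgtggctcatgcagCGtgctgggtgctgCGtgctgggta
Nrxn2: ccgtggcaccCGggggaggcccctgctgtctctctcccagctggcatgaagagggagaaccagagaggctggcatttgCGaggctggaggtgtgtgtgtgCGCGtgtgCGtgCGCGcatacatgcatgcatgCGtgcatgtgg
Cilp2: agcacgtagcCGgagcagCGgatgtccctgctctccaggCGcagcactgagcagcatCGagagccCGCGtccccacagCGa
Syk: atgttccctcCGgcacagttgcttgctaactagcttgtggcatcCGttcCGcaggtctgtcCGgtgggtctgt
The stretch in Kcnq1ot1 (chr7:143295374-143295510), the antisense RNA of the imprinted Kcnq1 locus, held 11 CpGs:
Kcnq1ot1: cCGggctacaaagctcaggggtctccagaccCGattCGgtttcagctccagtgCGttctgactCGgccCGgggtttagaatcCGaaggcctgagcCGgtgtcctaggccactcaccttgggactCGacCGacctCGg

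Most flanking sites had little methylation, and the rest spread over the whole scale. With the reads of all animals pooled, 75.8% of them were under 10%, 13.1% between 10 and 35%, 5.18% between 35 and 65%, 2.03% between 65 and 80% and 3.92% over 80%. Their median was 2.14%. The corresponding share under 10% was 97.7% within 1000 bp of a start and 46.3% beyond 5000 bp, so that flanking sites stood between both. Their mean level per animal was 11.7% ± 0.592 (SD, n = 12). It was 9.99 ± 0.534 points above that of sites within 1000 bp (1.68%) and 17.5 ± 0.872 points below that of sites over 5000 bp away (29.2%). Each direction held in 12 of 12 animals (exact sign-flip permutation test, two-sided p = 0.000488 for each, the smallest it can give). These levels depend on which sites were covered in every animal. Of the zone's 397609 sites with data in any library 21.3% passed, against 49.5% within 1000 bp and 9.73% beyond 5000 bp, and over all zone sites that a library covered the mean was 21.6 to 39.4%. With a minimum of 20 reads, 30861 flanking sites remained and the differences shrank to 3.30 and -5.13 points, with the same directions.

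Methylation rose with distance inside the zone itself. It was 6.40% ± 0.304 (SD, n = 12) up to 1500 bp, 10.4% ± 0.597 from there to 2000 bp, 13.1% ± 0.683 to 3000 bp, 18.04% ± 0.930 to 4000 bp and 18.3% ± 0.898 to 5000 bp. The outermost sites exceeded the innermost by 11.9 points, with 11.2 to 13.07 points in single animals and the same direction in 12 of 12 (exact sign-flip permutation p = 0.000488). The last step, from 18.04 to 18.3%, was the smallest, so that most of the rise lay within 4000 bp. The share of sites under 10% fell over the same distances from 86.6 to 62.8%. Under the 20-read minimum the rise from the innermost to the outermost sites was 3.64 points.

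**Figure D1:**
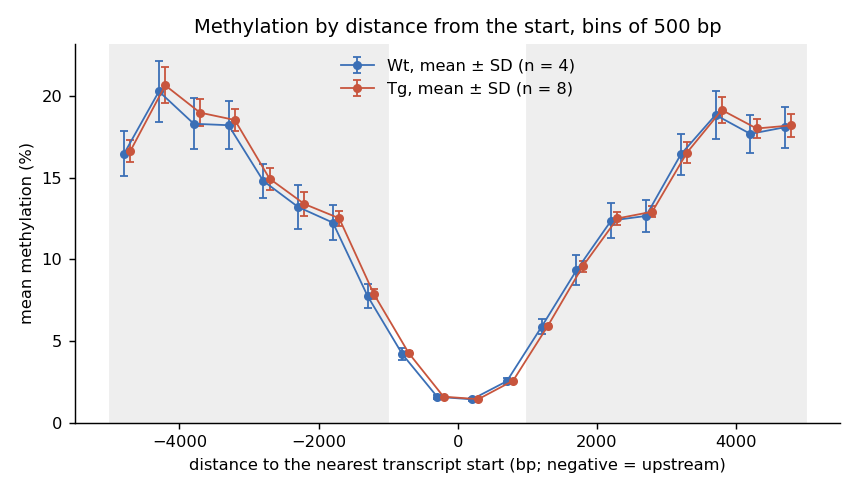
Mean methylation of autosomal sites (percent) in bins of 500 bp against the signed distance to the nearest start (bp), for Wt (blue, n = 4) and Tg (red, n = 8) with SD bars and the flanking zone shaded. Levels were lowest in the 500 bp downstream of the start (1.44%), rose on both sides to above 16% beyond 3000 bp, and the Wt and Tg bars overlapped in every bin.

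Upstream and downstream sites differed less than distance did. Of the flanking sites, 67.9% lay downstream of their nearest start. Their mean was 10.8% ± 0.518 (SD, n = 12), against 13.5% ± 0.754 upstream, a difference of -2.71 points that held in 12 of 12 animals (exact sign-flip permutation p = 0.000488). It was -0.594 points with the 20-read minimum and -1.51 points with starts of protein-coding genes only. The side and the CpG density were not independent, since upstream sites had fewer CpGs around them in every distance bin. With equal weight given to 5 classes of CpG count, downstream sites were above upstream sites by 0.0382 points (exact permutation p = 0.389), and single classes went both ways. At 8 to 11 CpGs per 202 bp, downstream sites were higher by 1.99 points in 12 of 12 animals, and at 1 to 3 CpGs they were lower by 5.14 points in 12 of 12.

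Levels within the zone varied more with CpG density than with distance. The number of CpGs in the 202 bp around a site had a median of 16, between the 23 near starts and the 9 of distant sites. Flanking sites fell from 34.9% ± 2.09 (SD, n = 12) at 1 to 3 CpGs to 31.7% ± 1.69 at 4 to 7, 18.8% ± 0.902 at 8 to 11, 8.59% ± 0.407 at 12 to 15, 4.32% ± 0.249 at 16 to 19 and 2.82% ± 0.160 at 20 or more. In each of these classes they were above sites within 1000 bp and below sites over 5000 bp away. At 8 to 11 CpGs the 3 classes of distance had 4.89, 18.8 and 38.4%, and at 20 or more they had 0.977, 2.82 and 4.15%. With equal weight to the 5 classes from 4 CpGs up, flanking sites were 8.82 points above the former and 11.4 points below the latter (exact sign-flip permutation p = 0.000488 for each), and the rise with distance was 8.93 points.

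**Figure D2:**
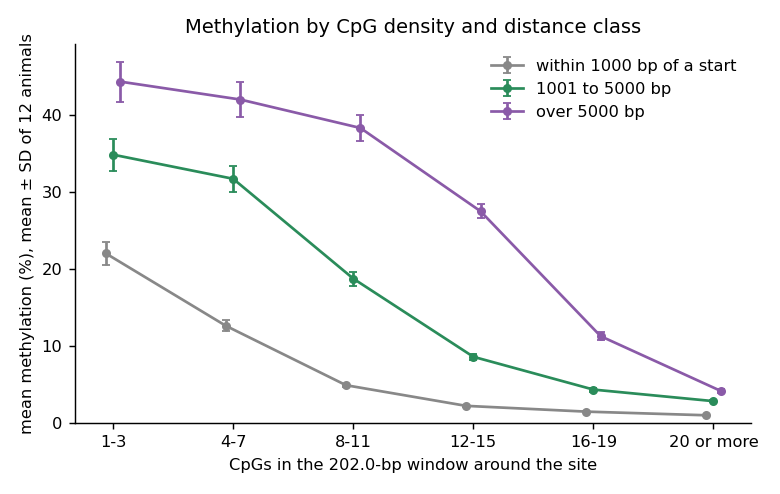
Mean methylation (percent, mean ± SD of 12 animals) against the number of CpGs in the 202-bp window around a site, for sites within 1000 bp of a start (grey), flanking sites (green) and sites over 5000 bp away (purple). The green line lies between the others at every density and falls from 34.9 to 2.82%.

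By annotation, 33.1% of the flanking sites were in coding exons, 39.2% in introns, 19.7% outside genes and 5.27% in untranslated exons. Mean levels in these places were close to each other, from 9.83% ± 0.578 (SD, n = 12) in untranslated exons and 10.9% ± 0.608 in introns to 11.9% ± 0.561 in coding exons and 13.3% ± 0.631 outside genes. Repeats stood apart with 29.4% ± 0.470 over 2942 sites, against 11.04% elsewhere. So did the 2543 sites whose nearest start was that of a processed pseudogene, with 29.1% ± 1.20. The enzyme of RRBS cuts at CCGG, and flanking sites inside CCGG had 15.9% ± 0.989, against 10.5% ± 0.488 for the others. They also lay in sparser sequence, with a median of 10 CpGs in place of 17. Both strands of 25379 CpGs were measured, and their pooled levels were within 10 points of each other in 98.9%.

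Runs of at least 5 flanking sites with gaps of at most 200 bp were joined into 3632 regions, which held 73157 of the sites and had a median of 11 sites over 129 bp. Of these regions, 2004 were under 10% in every animal, 68 were over 80% in every animal and 22 lay between 35 and 65% in every animal.

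Several of the longest unmethylated stretches lay at genes of transcription factors. Hes1, a repressor in Notch signalling, had the most unmethylated flanking sites, 299 of 304 under 10%, on both sides of the gene and out to 4955 bp, with 0.823 to 1.76% in single animals. A region of Sp8, a zinc-finger factor of limb and forebrain development, ran for 1597 bp on chromosome 12 with 292 sites at 1.05 to 2.33%. Upstream of Mir17hg, the host gene of the miR-17-92 cluster of growth-promoting miRNAs, 274 sites over 1448 bp had 0.470 to 1.29%. The 300 bases printed for it show the CpG density of such a stretch. Next came Marcks, a substrate of protein kinase C at the membrane (243 of 243 sites under 10%), Lor, which encodes loricrin of the skin barrier (239 of 239), Gata6, a factor of endoderm and heart (234 of 236), the immediate-early factor Egr3 (202 of 214) and Chadl, a matrix protein gene (200 of 212). No animal exceeded 4.55% in its mean over the flanking sites of any of these 8 genes.

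High methylation was rarer and came in shorter stretches. The 8 genes with the most flanking sites over 80% had 12 to 34 such sites each. Gm48668, a processed pseudogene, led with 34 of 39 sites and means per animal of 75.7 to 98.3%. Of the 37 sites assigned to 4632433K11Rik, 20 were over 80%. A region of them in a coding exon of Zfp865 held 13 sites in 87 bp at 81.03 to 92.5%. It was so although 23 CpGs lay within the median 202-bp window, as many as near a typical start. Those assigned to Gm12978, another pseudogene, lay in Srsf4, which encodes a splicing factor, with 16 of 17 over 80%. Those of Mir7012 lay in Dennd4b, with 15 of 15. Sipa1, a regulator of the small GTPase Rap, had 14 of 14, with 86.6 to 94.7% in single animals. Gm3411 had 15 of 16, Gm20420 in Pla2g6, a phospholipase gene, 13 of 14, and Pilra, an immune receptor gene, 12 of 12. The regions of Gm3411 and Pilra lay wholly in repeats.

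Of 6506 genes with a flanking site nearest to one of their starts, 1789 had at least 10. The median site was under 10% in 1432 of them, between 35 and 65% in 63 and over 80% in 23. Of the 1224 that also had at least 10 sites within 1000 bp, 24 joined a mean under 10% there with a flanking median over 50%. These 24 were picked out after their values were seen, and all were protein coding. Daxx, a histone H3.3 chaperone, went from 0.775% within 1000 bp to a flanking median of 86.4% over 15 sites, with means of 71.03 to 88.3% in single animals. Crip2, a LIM-domain gene, went from 1.40 to 84.7%, Zfp574 from 0.843 to 83.7% and Creld1, a cell adhesion gene, from 0.774 to 78.5%. Gas6, a ligand of the TAM receptors of microglia, went from 0.837 to 75.7%, and Nrtn, which encodes the neurotrophic factor neurturin, from 0.906 to 54.2%. In each pair the first value is a mean and the flanking value a median. Flanking means over sites were 81.9% in Daxx, 65.5% in Crip2, 84.6% in Zfp574, 74.65% in Creld1, 54.4% in Gas6 and 41.3% in Nrtn. Flanking sites under 10% were 3 of 11 in Gas6, 9 of 33 in Nrtn, 1 of 16 in Crip2 and 0 in Daxx, Zfp574 and Creld1. The 11 sites assigned to Creld1 all lay upstream of their nearest start, 4233 to 4551 bp away. Whether another gene holds them was not looked up. In Crip2 5 of 16 lay upstream, and in Daxx, Zfp574, Gas6 and Nrtn all lay downstream.

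The 22 regions at an intermediate level in every animal are described by the 6 with the most sites. The one with the most sites, 64 over 391 bp on chromosome 7 from 142082208 to 142082598, lay in a coding exon of Dusp8, a phosphatase that acts on MAP kinases, 3771 bp and more from the start of the small RNA gene Gm25416. The 4 Wt libraries averaged 44.05% ± 3.38 (SD), the 8 Tg libraries 45.8% ± 2.87, and all 12 animals were between 40.6 and 48.99%. A region of 59 sites in Sema6b, an axon guidance gene, at 56123846 to 56124350 of chromosome 17, averaged 46.5% ± 7.48 in Wt against 49.2% ± 2.64 in Tg. In Atn1, the atrophin 1 gene, 20 sites on chromosome 6 from 124744875 to 124745195 had 36.02 to 52.9%. Nr4a2, an orphan nuclear receptor of dopamine neurons, had 36.5 to 54.4% over 17 sites from 57110103 to 57110251 on chromosome 2. Slc39a4, a zinc importer gene, had 48.6 to 64.96% and Podxl, a sialomucin gene, 35.5 to 55.5%. In all 6 the ranges of Wt and Tg overlapped.

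Flanking sites near genes of several lists were compared with all flanking sites by their counts, medians and means. The 138 developmental regulators of the list (Hox, Pax, Dlx, Fox and related families) had flanking sites at 113 genes. Of their 5709 sites 90.6% were under 10%. They had a mean of 4.39% ± 0.241 (SD, n = 12) against 11.7% over all flanking sites, and 0 were over 80%. Their median of 2.48%, however, was slightly above the 2.14% of all flanking sites. The median number of CpGs in the window was 17, close to the 16 of all flanking sites. Among the 94 regulators with at least 10 sites the median was under 10% in 91. The exceptions were Pax6, a master factor of eye and cortex, with 25% over 53 sites, 50 of them upstream, and the forebrain factors Otx1 (20.2% over 58 sites) and Emx2 (20.2% over 11). These 3 were named for this after their values were seen. Within 1000 bp of their starts the means were 3.35, 2.54 and 2.07%. The lowest was Nkx6-3, with a median of 0.548% over 49 sites.

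Imprinted genes had the highest levels among the lists, with 19.1% of 288 sites under 10%, 3 sites over 80%, a median of 24.6% and a mean of 22.7% ± 2.31 (SD, n = 12). Of the 7 imprinted genes with at least 10 flanking sites, 4 had medians between 25 and 31%. They were Kcnq1ot1 (30.95% over 17 sites), Gnas, which encodes a stimulatory G protein subunit (27.3% over 63), Grb10, an adaptor that restrains growth signalling (26.2% over 103), and Impact, a translation regulator gene (25.6% over 16). In Kcnq1ot1 the 12 animals had 19.3 to 36.03%, in Grb10 21.4 to 33.7% and in Gnas 23.1 to 33.4%. Impact was the exception, with 0.391 to 48.3% in single animals. Cdkn1c, a cell cycle inhibitor, had 8.15% over 20 sites, and the growth factor gene Igf2 and Dlk1, a Notch ligand homologue, had 2.86% over 32 and 2.08% over 11. The printed stretch of Kcnq1ot1 carries 17 of these sites on 11 CpGs.

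The lists of cell type genes had mean levels under that of all flanking sites, except the astrocyte list. Neuronal genes had 7.37% ± 0.715 (SD, n = 12) over 269 sites, oligodendrocyte genes 7.74% ± 1.01 over 138, microglial genes 8.74% ± 0.730 over 166 and astrocyte genes 18.3% ± 1.26 over only 26. Their medians were 1.74, 2.48, 1.44 and 4.33%, against 2.14% over all flanking sites. Their shares under 10% were 79.2, 78.3, 79.5 and 73.1%. Among neuronal genes with at least 10 sites, Dlg4, which encodes the postsynaptic scaffold PSD-95, had a median of 0% over 22 sites and Gad1, which makes GABA, 8.06% over 11. The oligodendrocyte factors Olig2 and Nkx6-2 had 1.73% over 56 sites and 3.78% over 66. Sox9 of astrocytes had 1.87% over 19 sites, and Sall1, a factor of microglia, 0.981% over 144. Most sites of the 3 glial lists thus lay at these few genes, and the list means are no trait of a cell type. The mean over the Sox9 sites was 3.32%, so that the high astrocyte mean came from the few other sites. Genes of the extracellular matrix had 15.8% ± 1.36 over 453 sites of 44 genes. They ran from Mmp15, a membrane metalloprotease gene, with 0.679% over 28 sites, to Col6a1, a collagen VI chain gene, with 92.0% over 11 sites.

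Of the 21 genes linked to Alzheimer's disease, 4 had flanking sites, 40 in all, with a mean of 11.04% ± 1.47 (SD, n = 12). Mapt, the tau gene, held 30 of them, with a median of 1.74%, and 28 of the 30 were under 10%. The 78 sites of DNA methylation factors had 7.07% ± 2.44, with 59 of them at Gadd45b, a gene of active demethylation (median 1.11%). The 94 sites of ribosomal and proteasomal genes had 9.07% ± 1.74, from Psmc2 (0.406%) to Psmb10 (1.30%) among those with at least 10 sites.

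**Figure D3:**
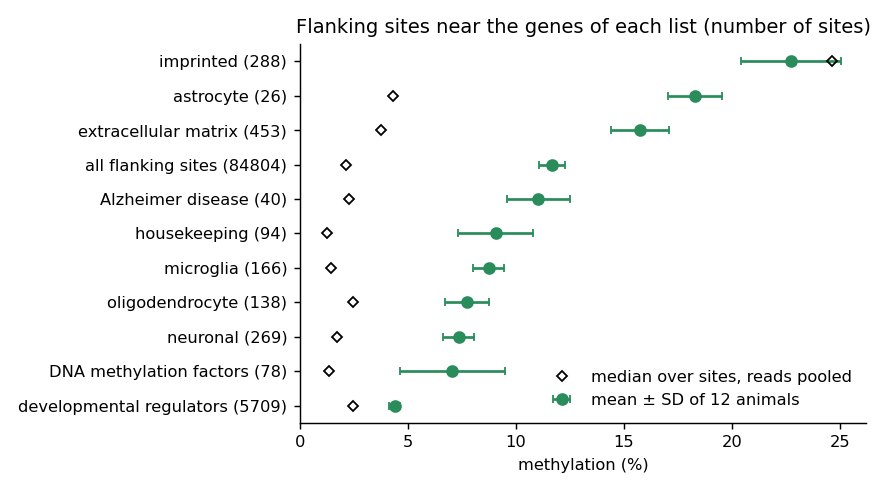
Methylation (percent) of flanking sites near the genes of each list, as the mean ± SD of 12 animals (circles) and the median over sites with reads pooled (open diamonds); the number of sites is in brackets. Developmental regulators had the lowest mean (4.39%) and imprinted genes the highest mean (22.7%) and median (24.6%).

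Whether Tg and Wt animals differed was asked first for the zone as a whole. Wt female 1 had a mean level of 12.9% over the flanking sites, Wt female 2 had 11.2%, Wt female 3 had 11.4% and the library labelled Wt male had 10.7%. In Tg it ran from 11.3 to 12.5%, inside the range of Wt. The group means were 11.6% ± 0.944 (SD, n = 4) for Wt and 11.7% ± 0.394 (SD, n = 8), with Tg higher by 0.182 points (exact permutation test, two-sided p = 0.655). The share of sites under 10% was 75% ± 1.74 in Wt and 74.2% ± 0.588 in Tg, a difference of -0.816 points (exact permutation p = 0.247). Within the labelled sexes the p-values were 0.669 and 0.240 (exact permutation over 175 splits), and without the library labelled Wt male the differences were -0.0947 and -0.250 points (exact permutation p = 0.861 and 0.703). Both depended on single libraries. Without Wt female 1, Tg was higher by 0.633 points (exact permutation p = 0.0364) and had fewer sites under 10% by 1.62 points (exact permutation p = 0.00606). These were 2 of 24 such values, with no adjustment for their number. Tg female 1, the next highest with 12.5%, stayed in there. Without both and the library labelled Wt male, chosen after seeing the data, the differences were 0.329 points (exact permutation p = 0.111) and -1.16 points (exact permutation p = 0.0556).

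**Figure D4:**
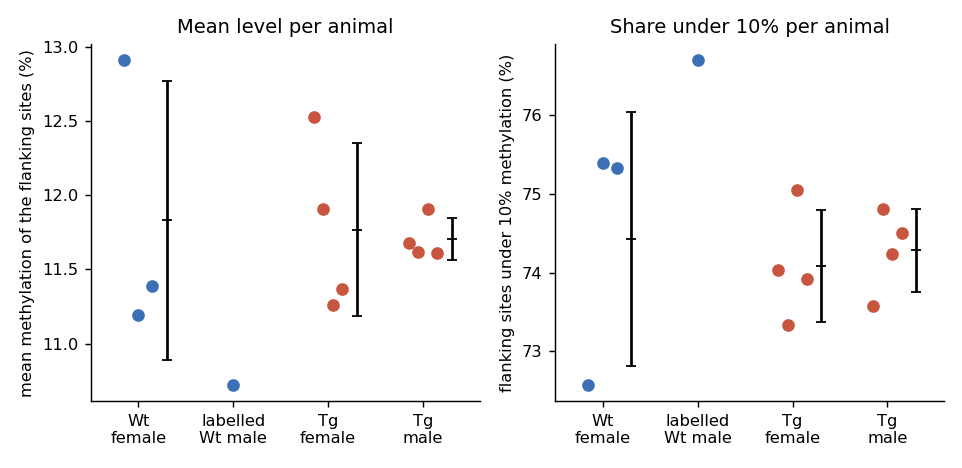
Mean methylation of the flanking sites (left, percent) and share of flanking sites under 10% (right, percent) in each animal by labelled group, with mean ± SD in black where a group has more than 1 animal. The vertical axes do not start at 0. Wt female 1 (12.9%) and the library labelled Wt male (10.7%) are the highest and lowest of all 12 on the left.

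At single sites, the binomial model was a logistic regression on genotype and labelled sex that treats reads as independent. It called 3147 flanking sites that differed by at least 10 points with an adjusted p-value under 0.1. This was 3.71% of them, against 1.72% of all sites tested and 1.49% of the autosomal sites. The share followed the level: between 35 and 65% methylation 21.7% of flanking sites were called, beside 19.1% within 1000 bp and 22.2% beyond 5000 bp, and under 10% methylation 0.226% were. Of the calls, 1955 (62.1%) were higher in Tg and 1192 were lower. Over all autosomal sites the share was close to it, 62.5% of 14429 calls. The share higher in Tg was 48.4% without the library labelled Wt male, 71.4% without Wt female 1 and 52.4% in the females alone, so that single libraries set its direction. In all, 631 of the 3147 (20.1%) were called in each of the 12 fits that left out 1 animal.

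The overdispersion model, which allows animals of a group to differ by more than counting error, called 0 flanking sites and 0 of all sites. Its smallest adjusted p-value was 0.422. At an unadjusted p under 0.05 it placed 8286 flanking sites (9.77%), below the 10.9% of all sites. This share also followed the level. It was 11.2% for flanking sites under 10% methylation, 4.76 to 5.46% between 10 and 80% and 7.41% over 80%. Sites under 10% had 11.6% within 1000 bp of a start and 10.2% beyond 5000 bp. A limma test on logit levels also called 0, with 6085 flanking sites (7.18%) under 0.05, here above the 5.19% of all sites. The limma share was not split by level or by distance class. The ranges of Wt and Tg did not overlap at 117 flanking sites (0.138%), against 0.0709% of all sites. By distance the flanking share stood between 0.0412% within 1000 bp of a start and 0.160% beyond 5000 bp. The opposite strand was tested for 1083 called flanking sites, and it differed in the same direction in 608 (56.1%), by at least 10 points in 130 (12%). The share in the same direction was little above an even split. It was 54.55% for called sites within 1000 bp of a start and 57.4% for those beyond 5000 bp.

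Genotype calls near the lists ranged around the 3.71% of all flanking sites. The binomial model called 73 of 5709 sites of developmental regulators (1.28%; 40 higher and 33 lower in Tg) and 31 of 288 of imprinted genes (10.8%; 23 higher, 8 lower). Impact alone held 11 of these 31 calls, all higher, and the other imprinted genes had 12 higher and 8 lower. At the level of most imprinted sites, 10 to 35%, 12.95% of all flanking sites were called. It called 27 of 453 of the extracellular matrix (5.96%; 14 higher, 13 lower), 14 of 269 neuronal (5.20%), 7 of 138 oligodendrocyte (5.07%), 5 of 166 microglial (3.01%), 1 of 26 astrocyte, 1 of 40 Alzheimer, 4 of 78 DNA methylation factor and 5 of 94 housekeeping sites. The overdispersion model called none of them. The median difference, Tg minus Wt, was 0.317 points in imprinted and 0.121 points in developmental genes, against 0.0224 points over all flanking sites.

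Reads summed over regions gave fewer calls. The binomial model called 47 of the 3632 flanking regions (1.29%; 36 higher and 11 lower in Tg), against 1.38% of all regions. Of the autosomal regions alone 0.927% were called, 173 higher and 66 lower. The other 123 calls, all lower in Tg, lay on chromosome X, where the library labelled Wt male was like the females. Of the 47, 18 were called in each fit that left out 1 animal. Without Wt female 1 it called 98. The overdispersion model called 0 flanking regions and 0 of all regions, a background of 0%, with a smallest adjusted p-value of 0.481 among flanking regions, and limma also called 0. At an unadjusted p under 0.05 the overdispersion model placed 196 flanking regions (5.40%), against 5.98% of all regions, and limma placed 147 (4.05%), against 4.97%. In 13 flanking regions (0.358%, against 0.304% of all regions) Wt and Tg did not overlap, and 2 of these were among the called. The 6 regions described next were the called regions with the smallest overdispersion p-values, those without overlap first, so that their differences are a description.

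Duox1 encodes a dual oxidase that makes hydrogen peroxide. Its called region, 7 plus-strand CpGs at 122319524 to 122319586 of chromosome 2 in a coding exon 3852 to 3914 bp downstream of the start, is printed above with its CpGs in capitals. Wt female 1 had 44.4%, Wt female 2 had 47.7%, Wt female 3 had 78.5% and the library labelled Wt male had 34.5%. In Tg the lowest was 4.09%, the median 12.95% and the highest 29.06%. All 8 Tg animals were below all 4 Wt animals. The means were 51.2% ± 19 (SD, n = 4) and 14.4% ± 9.93 (SD, n = 8), and without the library labelled Wt male Wt had 56.8% ± 18.8 (SD, n = 3). All 7 CpGs were lower in Tg, by 20.7 to 42.7 points, and at 4 of them the groups did not overlap. Coverage was 165 to 636 reads per animal summed over the CpGs, many of which share a read. The read-weighted difference of -39.8 points ran from -44.2 to -31.5 when single animals were left out. In the overdispersion model the unadjusted p was 0.00259 and the adjusted p-value 0.692.

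The other region without overlap lay outside genes on chromosome 4 from 134453884 to 134453960, upstream of the antisense RNA gene 1700021N21Rik. It had 16.4, 27.0 and 23.6% in Wt females 1 to 3 and 16% in the library labelled Wt male, against 3.16 to 14.6% in Tg with a median of 8.10%. Its group means were 20.7% ± 5.45 (SD, n = 4) and 8.49% ± 3.39 (SD, n = 8). The 5 CpGs were all lower in Tg. Without the library labelled Wt male the read-weighted difference was -13.3 points. In the females alone it was -9.53 points, under the 10 points of a call.

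The remaining 4 were higher in Tg, and in each the groups overlapped. An intron of Nrxn2, a presynaptic adhesion gene, held 8 sites on chromosome 19 from 6423395 to 6423517. Wt females 1 to 3 had 11.1, 0 and 2.69%, and the library labelled Wt male had 15.2%. In Tg it had 11.8 to 40.7% with a median of 26.4%, and 7 of the 8 Tg animals were above every Wt. Without the library labelled Wt male the mean of Wt fell from 7.24% ± 7.09 (SD, n = 4) to 4.60% ± 5.80 (SD, n = 3). Of its sites 75% were in a repeat. A region of coding exon and intron in Itgb4, the integrin beta 4 chain of hemidesmosomes, at 115989660 to 115989949 of chromosome 11 next to B230344G16Rik, averaged 28.99% ± 8.02 (SD) over the 4 Wt libraries and 43.3% ± 8.63 over the 8 Tg libraries, with 6 of 8 Tg animals above every Wt. An intron of Gse1, near the miRNA gene Gm22715 on chromosome 8 from 120441044 to 120441122, had 13.4% ± 5.16 and 29.9% ± 13.5. There 7 Tg animals were above and Tg female 4, with 2.20%, was below every Wt. A coding exon of Tpsg1, a mast cell tryptase gene, on chromosome 17 from 25374011 to 25374070, had 19.2% ± 7.46 and 30.5% ± 7.02, and without the library labelled Wt male its difference of 9.73 points was no longer called. Without that library the read-weighted differences were 23.2 points in Nrxn2, 14.9 points in Itgb4 and 17.8 points in Gse1, all called by the binomial model. Their unadjusted p in the overdispersion model went from 0.00487 to 0.00541, from 0.00765 to 0.0384 and from 0.00898 to 0.0515.

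The 4 regions with the largest SD over the 12 animals were chosen for it. Duox1 was one, and in the other 3 the ranges of Wt and Tg overlapped. In a coding exon of Tgfb1i1, an adaptor of focal adhesions, on chromosome 7 from 128253119 to 128253199, Tg female 2 had 93.8% of 65 reads (95% Wilson interval 85.2 to 97.6) and Tg female 4 had 3.33% of 60 (0.919 to 11.4). The other 10 animals had 4.88 to 50%, and the 4 Wt ended at 18.8%. The intron of Syk, a kinase of immune receptors, ran from 19.8% in the library labelled Wt male (15.3 to 25.1) to 91.08% in Tg female 1 (85.6 to 94.6). The 4 Tg males had 30.4 to 37.4%, while the Tg females had 29.5 to 91.08%. An intron of Rhoq, a small GTPase gene, on chromosome 17 from 86966164 to 86966265, ran from 10% in Tg female 4 (4.66 to 20.2) to 78.8% in Tg female 1 (72.9 to 83.7). Intervals cover counting error only and are too narrow, since neighbouring CpGs share reads.

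**Figure D5:**
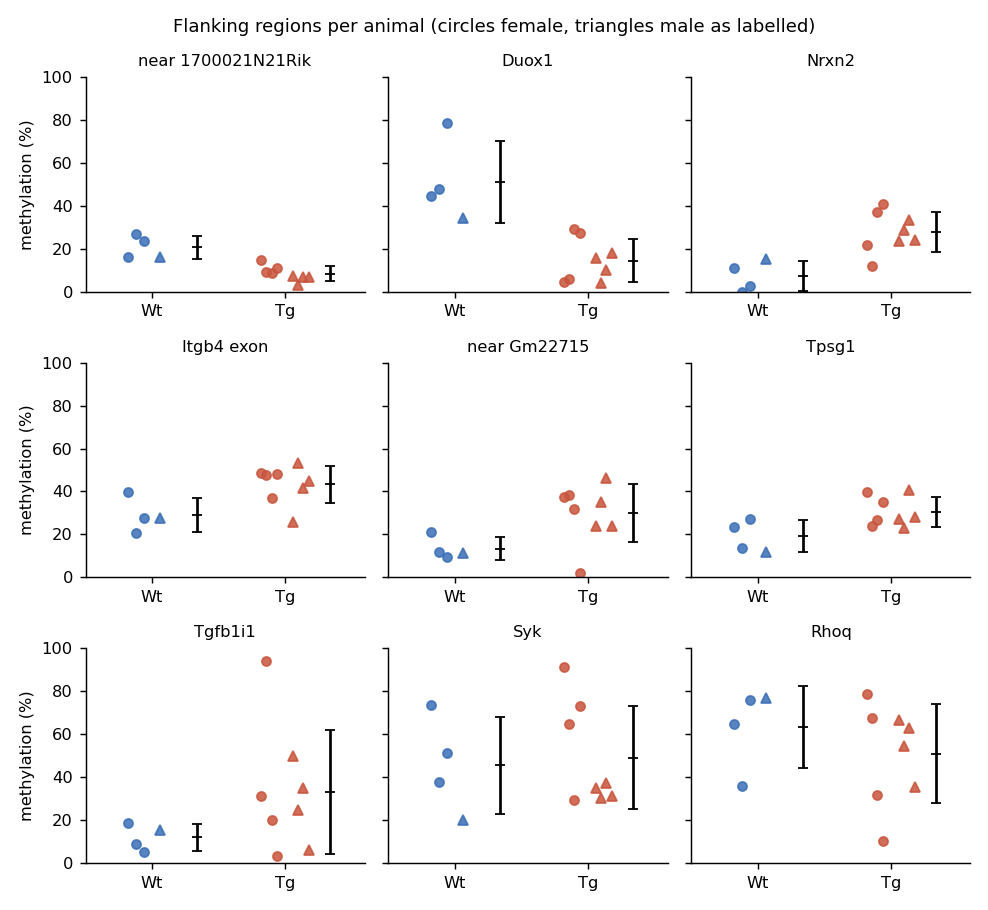
Methylation (percent) of 9 flanking regions in each animal, Wt in blue and Tg in red, circles for females and triangles for males as labelled (the Wt triangle is the library labelled Wt male), with mean ± SD in black. The top 6 panels are the regions named for genotype and the last 3 those with the largest spread; only the first 2 panels, near 1700021N21Rik and in Duox1, show no overlap between Wt and Tg.

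Among single sites, the 6 named were called flanking sites without overlap between the groups that had the smallest overdispersion p-values (8.5e-05 to 0.00071, each with an adjusted p-value of 0.422). In a coding exon of Cilp2, a cartilage matrix gene, the minus-strand site on chromosome 8 at 69883020 had 48.6, 35.6 and 33.9% in Wt females 1 to 3, 57.7% in the library labelled Wt male, and 10 to 30.8% in Tg with a median of 22.4%. Its opposite strand, a separate set of reads, had 23.8 to 51.7% in Wt and 0 to 33.3% in Tg, a difference of -25.5 points in the same direction, though there the groups overlapped. In an intron of Rfx1, a ciliary gene regulator, the site at 84084587 on chromosome 8 near Mir709 averaged 17.04% ± 11.4 (SD) over the 4 Wt libraries and 55.5% ± 18.7 over the 8 Tg libraries. Its opposite strand was higher in Tg by 9.66 points, but the groups overlapped widely there, with 10 to 78.95% in Wt and 19.4 to 85.7% in Tg. Differences on opposite strands are read-weighted. A coding exon site of Zfpm1, a GATA cofactor gene, at 122336386 on chromosome 8, averaged 4.38% ± 1.6 and 16.3% ± 5.55, whereas on its opposite strand Tg was lower, by -6.09 points.

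The remaining 3 sites had no large difference on an opposite strand or none tested. An intron site of Nek6, a mitotic kinase gene, at 38539788 on chromosome 2, averaged 14.3% ± 3.85 (SD) over the 4 Wt and 37.5% ± 15.9 over the 8 Tg libraries. A CCGG site 3246 bp upstream of Hexim1, an inhibitor of transcription elongation, at 103112985 on chromosome 11, had 6.45% in Wt female 1 and 0% in the other 3 Wt libraries, against 6.90 to 25% in Tg. At 89275115 on chromosome 4, in an intron of Cdkn2a, Tg had 0 methylated of 258 reads, which allows up to 1.16%, and Wt had 8 to 21.6%, while the opposite strand differed by -0.838 points. The first 2 had no opposite strand with data in all libraries. Without the library labelled Wt male the binomial model still called the 6 sites. The read-weighted differences were then -18.8 points at Cilp2, 34.4 at Rfx1, 10.6 at Zfpm1, 20.9 at Nek6, 12.2 at Hexim1 and -10.1 at Cdkn2a. Their direction could not change, because the sites were named for groups without overlap. Coverage at the 6 sites was 10 to 124 reads per animal.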

How the data were processed

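RRBS (MspI digestion) profiled 12 mouse brains, 4 Wt and 8 Tg, grouped by the labels. A commercial service prepared the libraries for the authors and sequenced both ends on a HiSeq 2000, Bismark aligned the reads to mm10 and extracted the calls, and methylKit held them. Tool versions are not given in the sources used here. The authors deposited, for each CpG cytosine, counts of all, methylated and unmethylated reads, strands apart and animals not pooled, without normalization and without sites under 10 reads. Coverage summed over the listed cytosines was 33619981 to 131446104 per library, with a read counted at each CpG it spans, so that a level of a site at the minimum of 10 reads is coarse. PCR duplicates cannot be removed from RRBS, and intervals and the limits from 0 counts (3 counts of the total) cover counting error only.

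From the counts, sites on the 19 autosomes and X were joined, 11 duplicated positions were dropped, and each site was assigned to its nearest transcript start (GENCODE vM21 basic). In 1 row the coverage was not the sum of both counts. The replicates are separate animals. Counts were equal at no more than 3.12% of the flanking sites in any pair of libraries, so each was 1 replicate. Both models were fitted to all 980547 sites, or to all 26291 regions, with genotype and sex as terms and Benjamini-Hochberg adjustment over the whole table. The binomial model used a likelihood-ratio test, and the overdispersion model an F test with a dispersion per site of at least 1. A call needed read-weighted levels at least 10 points apart with an adjusted p-value under 0.1. Mean levels were compared between groups by exact permutation of the animals (two-sided, 495 splits) and within animals by exact sign flips (4096). Python 3.11.15, numpy 2.4.6, scipy 1.17.1, R 4.3.3 and limma 3.58.1 (logit levels, pseudocount 1) were used, and the models were tested on simulated data first.

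The zone, the lists and the rules for naming genes, sites and regions were chosen with earlier results of these data known. Named were up to 6 sites and 6 regions for genotype, the 4 regions of largest SD, the 6 intermediate regions with most sites, the 8 genes with most sites under 10% and over 80%, and the genes with the lowest and highest median of each list among those with at least 10 sites. Unmethylated and highly methylated regions, 4 of each, went by most sites. Genes picked in other ways are said to be. Alternatives varied the read minimum (20), strands, starts, CCGG sites, covariate, difference (25 points), site set, regions (tiles of 1000 bp) and model, and left out each animal.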

Additional observations from a re-analysis of the deposited data

Results flagged for a closer look

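Within a group, a library far from the others was looked for in 112 groups of 4 to 8 animals, over the levels and differences of the report and its named sites and regions. There were 7 such values, where chance gives about 5.6. The difference between flanking sites and sites over 5000 bp from a start was -19.1 points in Wt female 1, against -16.8 to -16.6 points in the other Wt libraries, and -19.2 points in Tg female 1, against -17.9 to -16.9 points in the other Tg animals. Flanking sites in CCGG exceeded the others by 6.20 points in Wt female 1 and by 4.66 to 4.87 points in the other Wt libraries. At the site upstream of Hexim1, Wt female 1 had 6.45% where the other Wt libraries had 0%. In the region near 1700021N21Rik, Tg male 2 had 3.16%, below the 6.84 to 7.27% of the other Tg males. In the Itgb4 exon near B230344G16Rik, Tg female 3 had 37.2%, against 47.5 to 48.5% in the other Tg females. In the Atn1 region near Grcc10, Tg male 1 had 52.9%, against 42.9 to 44.6% in the other Tg males. Of the 7, 4 concern Wt female 1 or Tg female 1, the libraries with the highest mean levels over the flanking sites, and the cause was not tested.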

How the results depend on the processing

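The class, distance and side differences kept their sign and their call in every alternative run, except the side difference, which was 0.0382 points (exact permutation p = 0.389) with equal weight to 5 classes of CpG count, chosen after seeing the data. The overdispersion model called 0 sites and 0 regions in every alternative run, limma included. The cause of the changes given next was not tested, beyond fewer sites or animals where the alternative leaves them out.

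The 3147 called sites became 388 with at least 20 reads, 121 at 25 points and 12517 of 169795 sites with data in at least 3 Wt and 6 Tg. The 47 called regions became 5, 1 at 25 points, 30 with starts of protein-coding genes only, and 110 in the females as labelled. The share of calls higher in Tg (62.1%) was 57.0% with 20 reads, 64.7% with strands summed, 59.4% without CCGG sites, 59.5% without the sex covariate, 52.4% in the females, 67.8% at 25 points, 60.3% with an unweighted difference and 59.2% in the wider site set. In the females, the genotype difference in level was -0.0631 points (exact permutation p = 0.914). Without Wt female 1 and Tg female 1, chosen after seeing the data, it was 0.519 points (exact permutation p = 0.0333), the share under 10% differed by -1.60 points (exact permutation p = 0.00833) and 66.1% of calls were higher in Tg. Without the library labelled Wt male as well, these were 0.329 points (exact permutation p = 0.111), -1.16 points (exact permutation p = 0.0556) and 53.2%.

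Leaving out 1 animal at a time gave genotype differences of -0.0947 to 0.633 points in level and -1.62 to -0.250 points in the share under 10%, 2699 to 4332 called sites, 46 to 98 called regions and 48.4 to 71.4% of calls higher in Tg. Genotypes were not compared in pairs, because Wt and Tg were separate animals that the labels do not match. Depth limits single sites most: at 10 reads 1 read is worth 10 points.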
